A study of Bos taurus with 12 samples.

Results

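The matrix proteases and inhibitors described here are the products of 7 genes, measured by every probe set of a bovine expression array that is annotated to 1 of the symbols TIMP1, TIMP2, TIMP3, MMP2, MMP14, PLAU and PLAT. They were chosen by gene name and took in 12 probe sets, out of 24016 probe sets and 9155 genes named by a single symbol. TIMP2 and MMP14 had 3 probe sets each, TIMP1 had 2, and the other 4 genes had 1 each.

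RNA came from elongated bovine conceptuses recovered on day 16 of gestation after blastocysts had been transferred on day 7 to synchronized cows. SCNT conceptuses came from somatic cell nuclear transfer, IVP conceptuses from fertilization and culture in vitro, and AI conceptuses from embryos that had formed in inseminated donors in vivo. FB was the culture of donor fibroblasts used for nuclear transfer. Each of the 4 groups had 3 arrays. The titles and tissue labels of the FB arrays call them elongated embryos, and their descriptions call them fibroblasts. Breed, sex, the age of the fibroblasts and the number of cell lines are not stated in the labels. Nothing in the labels tells separate animals, pools or cultures apart within a group, so p-values measure the spread between these arrays, which may be partly technical. Conceptuses were chosen for comparable length, which limits what the groups can show about growth.

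Matrix metalloproteinases are zinc enzymes that cut collagens and other matrix proteins. MMP2 digests type IV collagen and gelatin, and MMP14 is the membrane-bound enzyme that activates pro-MMP2 with TIMP2 as a bridge. The TIMPs are small proteins that block the active site of these enzymes, and TIMP3 is the one that binds to the matrix itself. PLAU (urokinase) and PLAT (tissue-type activator) turn plasminogen into plasmin, a serine protease that degrades fibrin and matrix. In ruminants the trophoblast does not invade the uterine wall deeply, and TIMPs and metalloproteinases are known at the interface of conceptus and uterus.

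The labelled cell types were checked against marker genes. Of 10 annotated fibroblast markers, 8 lay above log2 4 on all FB arrays (THY1 and PDGFRB did not). On every array of each conceptus group 9 of the 10 lay below log2 4, and THY1 lay above it. The summed log2 signal of the fibroblast markers was 26.9 to 27.3 in SCNT, 26.1 to 27.1 in IVP and 27.0 to 28.8 in AI, against 86.7 to 87.1 in FB. Of 10 annotated trophoblast markers, 8 lay above log2 4 on all conceptus arrays, KRT8 and ELF5 did not, and all 10 lay below it in FB. All 5 endothelial and all 6 endometrial markers lay below log2 4 on all 12 arrays. On single arrays 26.5% to 27.7% of the probe sets exceeded log2 4. Log2 4 was taken as the level below which a signal gives only a bound. Precision is limited by having 3 arrays a group.

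TIMP1 was strong in fibroblasts and low in conceptuses. The first of its probe sets gave log2 signals of 4.11, 4.11 and 3.98 on the SCNT arrays, 5.89, 5.87 and 5.82 on the IVP arrays, 6.66, 6.07 and 3.98 on the AI arrays, and 12.74, 12.38 and 12.57 on the FB arrays. The SCNT arrays lay together at the detection limit, the IVP arrays lay together above it, and AI 3 lay with the SCNT arrays rather than with AI 1 and AI 2. The second TIMP1 probe set, whose design name carries the suffix s_at for probes shared by similar transcripts, showed the same layout, at 3.98, 3.96 and 3.24 in SCNT, 5.77, 6.10 and 5.78 in IVP, 6.61, 6.08 and 3.40 in AI, and 13.07, 13.07 and 12.90 in FB. Both probe sets stem from the same transcript cluster of the array design, so they are not independent measurements.

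TIMP2 was the member with the clearest difference between conceptus groups. The brightest of its 3 probe sets gave 5.37, 5.60 and 6.30 on the SCNT arrays, 7.01, 7.57 and 7.94 on the IVP arrays, 8.60, 8.35 and 7.26 on the AI arrays, and 11.31, 11.45 and 11.37 on the FB arrays. All SCNT arrays lay below all IVP and all AI arrays, whereas IVP and AI overlapped. The other 2 TIMP2 probe sets gave no level above log2 4 in conceptuses. The second ran from 2.89 to 3.04 in SCNT, from 3.12 to 3.72 in IVP and from 3.34 to 3.80 in AI, against 9.04 to 9.12 in FB. The third stayed between 2.43 and 2.51 on every conceptus array, against 5.45 to 5.90 in FB.

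TIMP3 and MMP2 were signals of the fibroblasts. TIMP3 ran from 2.42 to 2.81 over the 9 conceptus arrays, against 10.78, 10.84 and 10.48 on the FB arrays. MMP2 gave 2.42, 2.43 and 2.43 in SCNT, 2.53, 2.51 and 2.43 in IVP, 3.83, 3.12 and 2.55 in AI, and 9.83, 9.88 and 9.83 in FB. All 3 AI values of MMP2 lay above those of SCNT and IVP while remaining below log2 4. MMP14 was not above log2 4 anywhere. Its 3 probe sets ran from 2.42 to 2.65 in conceptuses and from 2.42 to 2.68 in FB, which leaves the level of the MMP2 activator unmeasured by these probes.

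The plasminogen activators differed from each other in layout. Of the tested members PLAU had conceptus signals nearest to its own signals in fibroblasts, at 7.15, 5.91 and 5.51 in SCNT, 5.61, 6.13 and 5.71 in IVP, 6.55, 6.51 and 6.47 in AI, and 7.98, 7.84 and 7.92 in FB. SCNT 1 lay above all other conceptus arrays, and the AI arrays lay above all IVP arrays. PLAT gave 2.42, 2.52 and 2.42 in SCNT, 2.44, 2.42 and 2.52 in IVP, 3.31, 3.02 and 4.97 in AI, and 6.51, 6.42 and 6.59 in FB. Only AI 3 passed log2 4 among the conceptus arrays, the same array that was lowest of the AI arrays for TIMP1, TIMP2 and MMP2.

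**Figure D1:**
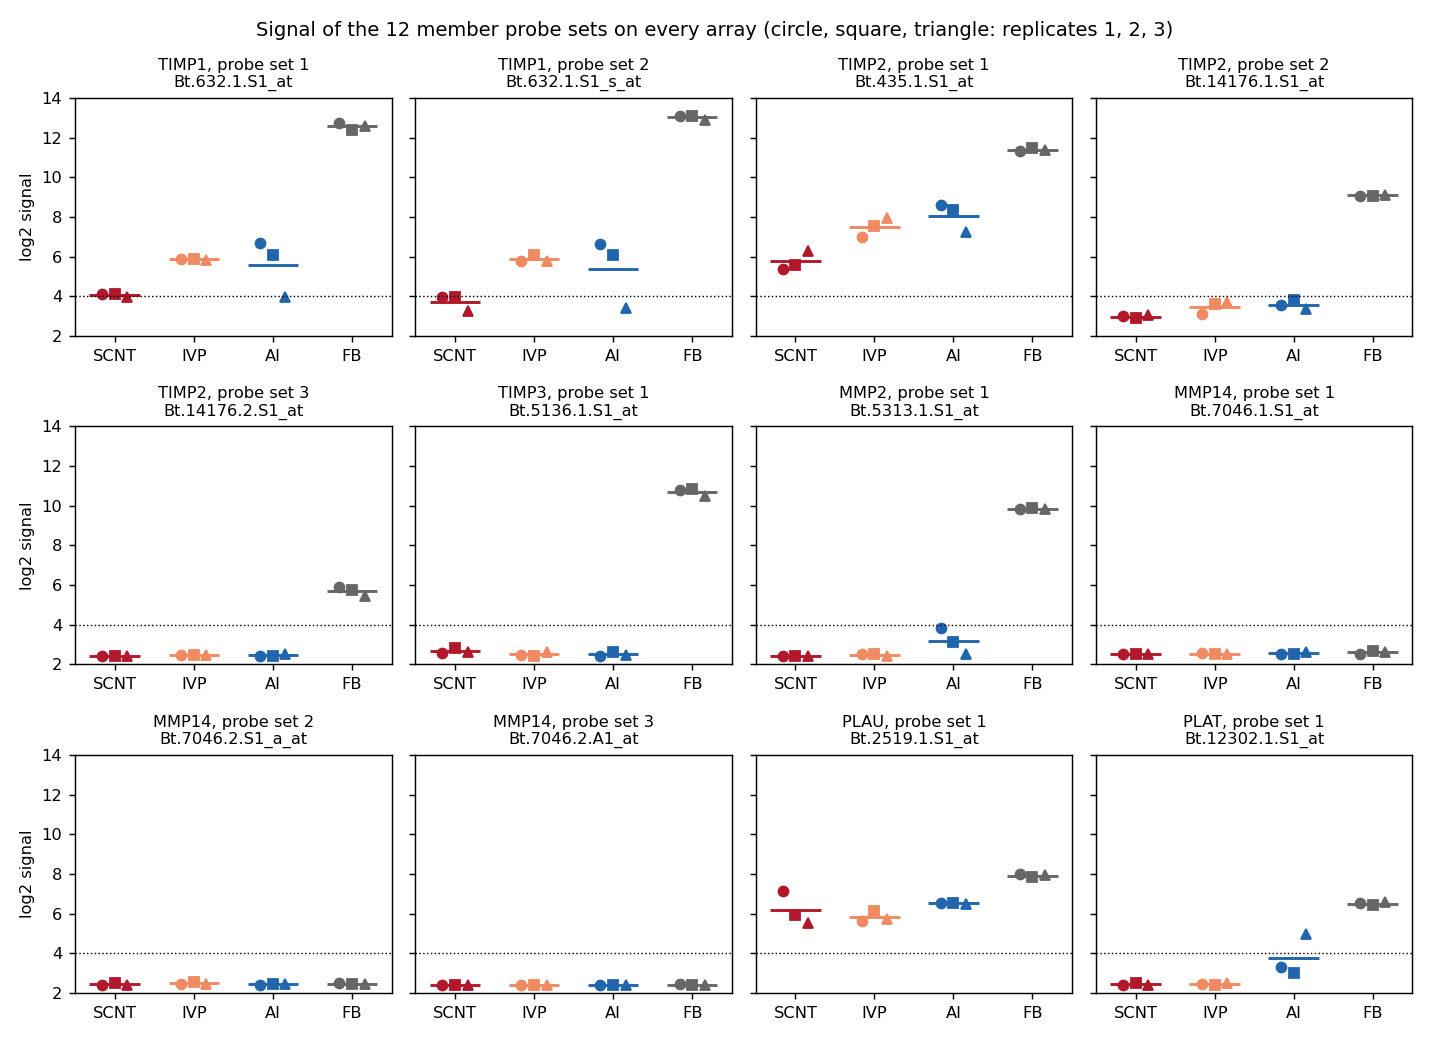
Log2 signal (vertical axis) of the 12 member probe sets in SCNT, IVP, AI and FB, with circles, squares and triangles for replicates 1, 2 and 3, a horizontal line at each group mean and a dotted line at log2 4. FB lies above every conceptus array for all members but MMP14, whose 3 probe sets stay at or below 2.68 on all arrays. Panels are numbered in the order in which the text takes the probe sets of a gene.

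SCNT conceptuses were first set against AI conceptuses, the question being how these genes stood after nuclear transfer relative to insemination. A test was made where 3 or more arrays exceeded log2 4, which among the 9 conceptus arrays left 4 member probe sets, 2 of TIMP1, 1 of TIMP2 and 1 of PLAU. TIMP2 was 4.97-fold lower in SCNT (95% interval 2.85 to 8.66), averaging 5.76 ± 0.48 in SCNT against 8.07 ± 0.71 in AI (log2, SD, n = 3 each), a difference of -2.31 with adjusted p = 0.00152 in limma. It was the 1 member of 4 called lower and 0 were called higher. Over all 6892 probe sets tested, 11.4% were called lower and 16.2% higher in SCNT than in AI. The median difference of the 4 was -1.57 as measured and -1.43 with the second TIMP1 probe set at its bound, beside 0.08 over all probe sets. That median is set by the 2 TIMP1 probe sets, which are not independent and were not called. It therefore does not describe the members as a group. TIMP2 passed under all 22 alternative settings tried, with differences from -2.72 to -2.05 and adjusted p from 5.42e-04 to 0.0442.

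TIMP1 did not pass in SCNT against AI, a result that turned with AI 3 and with a few other settings. By the first probe set its difference was -1.50 (95% interval -2.63 to -0.37, adjusted p = 0.0513). On the second no SCNT array exceeded log2 4, so the size is only a bound, at least 2.57-fold lower in SCNT (means 3.73 in SCNT and 5.36 in AI, adjusted p = 0.0811 on the measured values). That bound keeps AI 3 at its measured 3.40, itself below log2 4, so it holds only with that value. AI 3 lay at the level of the SCNT arrays on both probe sets, so the groups overlapped. Without AI 3 the first gave -2.30 (adjusted p = 1.71e-04) and the second at least 5.08-fold lower (adjusted p = 3.89e-04). Over all alternatives adjusted p ran up to 0.322 and 0.409, and TIMP1 was called in 5 and 4 of them, counting the looser threshold of 0.10 as 1 of them. PLAU averaged 6.19 ± 0.86 in SCNT against 6.51 ± 0.04 in AI (SD, n = 3 each), a difference of -0.32 (-1.06 to 0.43, adjusted p = 0.514). Without SCNT 1 it was -0.80 (adjusted p = 0.0164), and without SCNT 3 it was 0.023. Its adjusted p ran up to 0.967 over all alternatives.

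IVP conceptuses were set against AI conceptuses to ask the same of fertilization and culture outside the cow. Of the 4 member probe sets 0 were called in either direction by limma, and 0 had an unadjusted p under 0.05. Of all probe sets 8.42% were called higher and 9.49% lower, while an unadjusted p under 0.05 was reached by 17.3% on the higher and 15.8% on the lower side. TIMP2 averaged 7.51 ± 0.47 in IVP against 8.07 ± 0.71 in AI (SD, n = 3 each), a difference of -0.56 (95% interval -1.37 to 0.24, adjusted p = 0.305). The TIMP1 differences were 0.29 (-0.84 to 1.43, adjusted p = 0.727) and 0.52 (-0.90 to 1.94, adjusted p = 0.608), and without AI 3 they were -0.51 and -0.46. PLAU was 5.82 ± 0.27 in IVP against 6.51 ± 0.04 in AI (SD, n = 3 each). The PLAU difference of -0.69 (-1.44 to 0.05) did not pass (adjusted p = 0.179). It passed without SCNT 1, which was part of the shared estimate of spread (adjusted p = 0.0222), and with IVP and AI fitted alone (adjusted p = 0.0271). Over all alternatives its adjusted p ran up to 0.615.

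SCNT and IVP conceptuses, both made in vitro, were then set against each other. Here 0 of the 4 member probe sets were called by limma, while 3, the 2 of TIMP1 and that of TIMP2, had an unadjusted p under 0.05, all lower in SCNT, and those 3 did not overlap between the groups. Over all 6892 probe sets, such a p was reached by 4.74% on the lower and 7.97% on the higher side, 6.83% were lower and 12.9% higher without overlap, and 0.348% were called lower and 0.232% higher. TIMP1 differed by -1.79 (95% interval -2.93 to -0.66, adjusted p = 0.185) on its first probe set, and on its second it was at least 3.69-fold lower in SCNT (means 3.73 in SCNT and 5.88 in IVP, adjusted p = 0.203). TIMP2 differed by -1.75 (-2.55 to -0.95, adjusted p = 0.0757). PLAU differed by 0.38 (-0.37 to 1.12, adjusted p = 0.695).

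For the first TIMP1 probe set the SDs were 0.08 in SCNT and 0.04 in IVP, against 1.41 in AI. For the second they were 0.42 in SCNT and 0.19 in IVP, against 1.72 in AI. The SCNT values lay near log2 4 on the first and below it on the second. The AI spread entered the shared estimate of spread. Without AI 3 the TIMP1 comparisons of SCNT with IVP had adjusted p = 0.00143 and 0.00255, and that of TIMP2 had adjusted p = 0.0188. With SCNT and IVP fitted alone, adjusted p was 6.53e-04 and 0.00914 for TIMP1 and 0.0456 for TIMP2. Over all alternatives adjusted p ran up to 0.684 for TIMP1 and 0.421 for TIMP2. In descending order the conceptus groups thus ran AI, IVP, SCNT for TIMP2, where only SCNT against AI passed, and IVP, AI, SCNT for TIMP1, where no step passed. The SCNT and IVP comparisons with AI share the AI arrays.

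**Figure D2:**
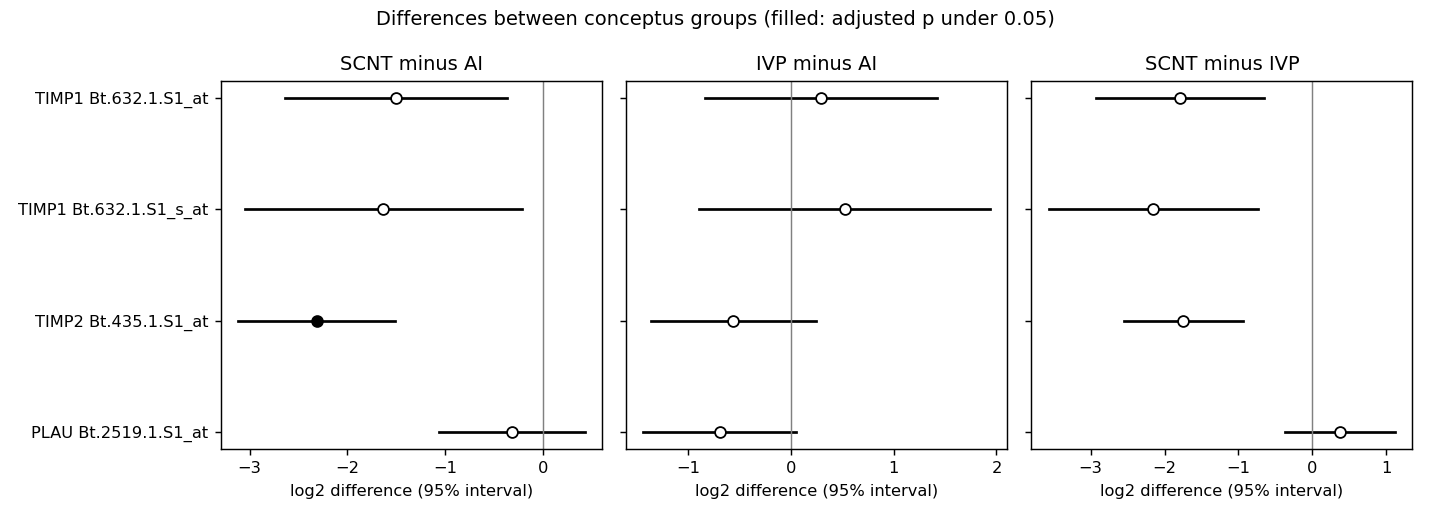
Log2 differences (horizontal axis, first-named group minus the second) with 95% intervals for the 4 tested member probe sets in SCNT minus AI, IVP minus AI and SCNT minus IVP, filled where the adjusted p lay under 0.05. The 1 filled point is TIMP2 in SCNT minus AI at -2.31, and the TIMP1 intervals in SCNT minus IVP lie below 0 without passing the adjustment. The second TIMP1 probe set is drawn at its measured values, which against SCNT, below log2 4 there, stand for bounds.

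The members that did not reach the filter add little to these comparisons. Tested with no filter on low values, neither PLAT (adjusted p = 0.234) nor MMP2 (adjusted p = 0.281) was called between SCNT and AI. A fit over all 12 arrays adds the closely spaced FB arrays to the estimate of spread. There 5 of 9 tested member probe sets passed as lower in SCNT than in AI. Of all 8164 probe sets 1058 were called lower and 1471 higher in that fit. The 5 were TIMP2 by its brightest probe set (adjusted p = 5.42e-04) and by its second (adjusted p = 0.0135), TIMP1 by its first (adjusted p = 0.0373), MMP2 (adjusted p = 0.0306) and PLAT (adjusted p = 0.0183). MMP2 and the second TIMP2 probe set entered that fit only through the FB arrays, and PLAT through FB and AI 3. For MMP2, PLAT and the second TIMP2 probe set both group means lay below log2 4, so no size is given. PLAT, with both means below log2 4 here too, also passed as lower in IVP than in AI in that fit (adjusted p = 0.0251). PLAT was the 1 of 9 called there, beside 919 of all 8164 probe sets called lower and 908 higher.

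Signals of hypoblast genes, whose products belong to the inner layer that lines the yolk sac, were set beside the TIMPs. Of 7 annotated hypoblast markers GATA6 and APOA1 lay above log2 4 on all conceptus arrays, whereas TTR was at the lowest values there. Their summed log2 signal was 33.1 to 33.4 in SCNT, 35.2 to 36.6 in IVP and 34.9 to 39.8 in AI. FGG, a fibrinogen chain, gave 2.62, 2.50 and 2.62 in SCNT, 2.99, 3.56 and 4.10 in IVP, and 5.79, 6.11 and 3.72 in AI. APOA2, an apolipoprotein, gave 3.52, 3.39 and 3.29 in SCNT, 4.64, 4.59 and 3.89 in IVP, and 4.73, 5.09 and 3.79 in AI. AI 3 was thus the lowest AI array for FGG and APOA2 as it was for TIMP1 and TIMP2. GATA6 went the other way, at 7.85, 7.66 and 7.97 in AI, highest on AI 3. FGG and APOA2 are 2 of the 7 markers, named after their values were seen, and do not stand for the list. The part of the hypoblast in the TIMP values was not tested. In RNA from mixed conceptus tissue, fewer cells of a type and less RNA per cell cannot be told apart.

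Leukocyte markers also differed with the groups. Summed over 8 genes they gave 20.6 to 22.1 in SCNT and 20.2 to 22.7 in IVP, against 27.7 to 31.5 in AI. ITGB2 (8.44, 7.91 and 9.07 in AI) and CD48 (6.25, 4.86 and 6.65 in AI) carried this. The other 6 genes lay below log2 4 on all AI arrays, PTPRC, CD3E and TYROBP among them at 2.42. The source of these signals was not tested. AI 3, highest for ITGB2 and CD48, was the highest AI array for PLAT and the lowest for TIMP1, TIMP2 and MMP2. The mean signal of the spike-in controls was 7.57, 7.60 and 7.42 in SCNT, 7.75, 8.27 and 8.24 in IVP, and 7.52, 8.30 and 7.35 in AI, against 7.19, 7.10 and 6.93 in FB. With that signal as a covariate the TIMP2 difference between SCNT and AI stayed called, while the TIMP1 differences between IVP and AI became -0.05 and -0.01. The log2 excess of the 3′ over the 5′ GAPDH probe set, a sign of RNA quality, was 0.28, 0.45 and 0.38 in SCNT, 0.35, 0.51 and 0.89 in IVP, and 0.22, 0.21 and 0.38 in AI, against 0.06, 0.06 and 0.01 in FB. With that excess as a covariate TIMP2 also stayed called between SCNT and AI, and the TIMP1 differences between IVP and AI became 0.76 and 1.10, neither called under either covariate. The part of either measure in the TIMP values was not tested beyond these fits.

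**Figure D3:**
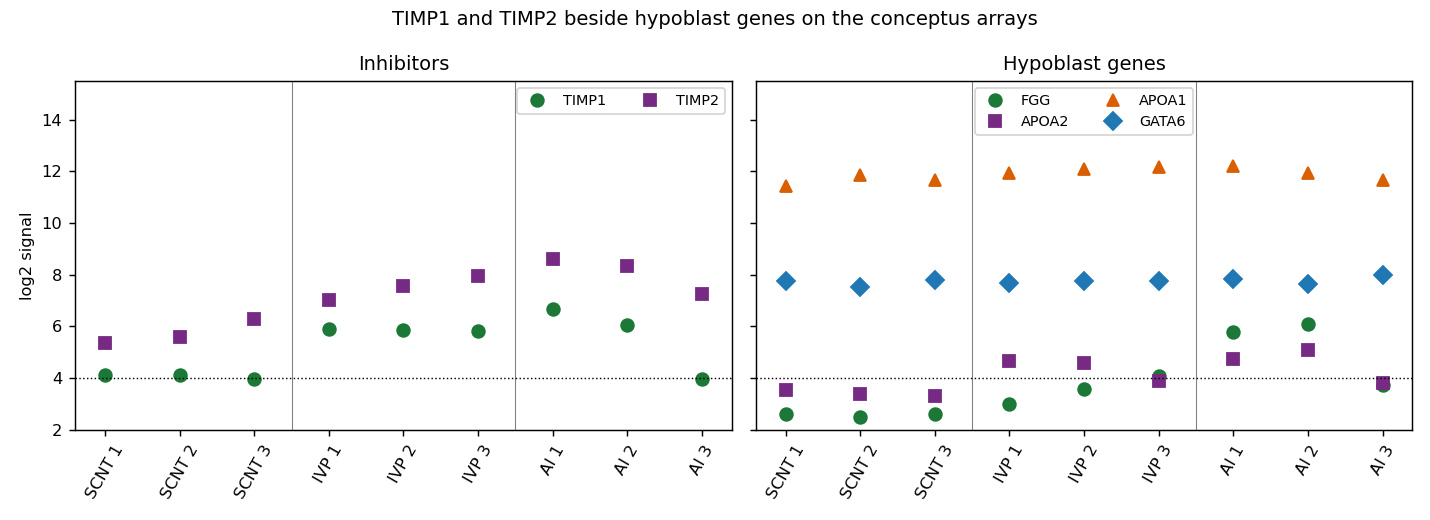
Log2 signal (vertical axis) of TIMP1 (first probe set) and TIMP2 (brightest probe set) on the left and of the hypoblast genes FGG, APOA2, APOA1 and GATA6 on the right, for each conceptus array (horizontal axis), with a dotted line at log2 4. On AI 3, TIMP1 (3.98), TIMP2 (7.26), FGG (3.72) and APOA2 (3.79) are each the lowest of the 3 AI arrays, whereas GATA6 is highest there.

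Against the fibroblasts, every conceptus group was lower for every member that could be tested. All 9 tested probe sets, those of every member but MMP14, were called lower in SCNT, in IVP and in AI than in FB, and none of these groups overlapped with FB. Without overlap lay 36.6% of all probe sets lower and 48.2% higher in SCNT, 37.5% lower and 45.8% higher in IVP, and 37.4% lower and 43.9% higher in AI. Over all 8164 probe sets tested on the 12 arrays, 34.8% were called lower and 45.0% higher in SCNT than in FB, 35.7% lower and 43.0% higher in IVP, and 35.6% lower and 41.6% higher in AI. Of the 9, TIMP3, MMP2 and the 2 dimmer TIMP2 probe sets passed the filter only through the FB arrays, and PLAT through FB and AI 3. Those 5 had to differ, so the count of 9 carries no weight beyond the 4 probe sets tested among conceptuses. The 3 comparisons share the FB arrays.

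The largest gap with group means above log2 4 on both sides was that of TIMP1. By its first probe set it was 360-fold lower in SCNT (95% interval 171 to 760, adjusted p = 9.59e-09), 104-fold lower in IVP (49.3 to 219, adjusted p = 9.41e-08) and 127-fold lower in AI (60.4 to 268, adjusted p = 6.31e-08) than in FB. The SCNT mean was 4.07, with SCNT 3 below log2 4, so the SCNT size is close to a bound. The AI value moved with AI 3, to 73.3-fold lower without it and to 186-fold lower without AI 1. TIMP2 by its brightest probe set was 49.2-fold lower in SCNT (29.3 to 82.7, adjusted p = 1.54e-08), 14.6-fold lower in IVP (8.71 to 24.6, adjusted p = 5.43e-07) and 9.91-fold lower in AI (5.89 to 16.7, adjusted p = 2.36e-06). PLAU had the smallest gap, at 3.30-fold lower in SCNT (2.04 to 5.34, adjusted p = 3.12e-04), 4.28-fold lower in IVP (2.65 to 6.93, adjusted p = 6.48e-05) and 2.65-fold lower in AI (1.64 to 4.28, adjusted p = 0.0015).

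For the remaining members the conceptus side gave only a bound, since arrays below log2 4 were set to 4 before the fold was taken. TIMP3 was at least 104-fold lower and MMP2 at least 57.6-fold lower than in FB in each of the 3 conceptus groups. PLAT was at least 5.68-fold lower in SCNT and in IVP and at least 4.54-fold lower in AI. TIMP2 by its second probe set was at least 33.9-fold lower and by the dimmest at least 3.26-fold lower in each group. The 2 dimmer TIMP2 probe sets passed the filter only through FB, so their direction was fixed by it. The 33.9-fold bound lies above the 14.6-fold in IVP and 9.91-fold in AI of the brightest probe set, so the sizes differed there. The second TIMP1 probe set also differed in size from the first, at least 517-fold lower in SCNT, 140-fold in IVP and 201-fold in AI. The last was 102-fold without AI 3 and 310-fold without AI 1.

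The genes whose profiles lay nearest to each member were named by the root mean square difference of centred log2 values over the 12 arrays, among 4975 genes. For MMP2 this was IGFBP6, a binding protein of insulin-like growth factors, at 0.11, well ahead of GNG11 at 0.38 and CDC42EP3 at 0.39. IGFBP6 averaged 2.75 in SCNT, 2.79 in IVP and 3.27 in AI, against 10.18 in FB. It was also the nearest gene to TIMP1 (0.74), followed by the smooth muscle actin gene ACTA2 (0.86) and the microfibril gene MFAP5 (0.88). TIMP3 lay nearest to CCL2, a chemokine, and to CCDC80 and CDH13, all at 0.13. These 3 genes averaged 2.42 to 2.46 in the conceptus groups, against 10.43 to 10.61 in FB.

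The nearest genes to TIMP2 were GSN, which encodes the actin-severing protein gelsolin (0.54), the calpain inhibitor gene CAST (0.64) and the cell cycle inhibitor gene CDKN1A (0.67). GSN averaged 6.13 in SCNT, 7.14 in IVP and 7.47 in AI, against 10.36 in FB. That is the same order of groups as TIMP2, which its choice by nearness to TIMP2 favours. CAST averaged 5.05 in SCNT, 5.68 in IVP and 5.94 in AI, against 10.20 in FB. PLAU lay nearest to RNASEK (0.27), to the proton pump subunit gene ATP6V0D1 (0.27) and to BBLN (0.34). PLAT lay nearest to ACSF2 (0.28), PCK2 (0.38) and the kinase gene NUAK1 (0.39). These distances are descriptions over 12 arrays, dominated by the gap between conceptuses and FB.

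Other genes of the protease systems were followed through 7 lists of 90 names, of which 58 were annotated on the array, 27 were tested among conceptuses and 33 over all 12 arrays. Of the 27, 2 were higher and 10 lower in SCNT than in AI, with a median difference of -0.26, and 4 were higher and 7 lower in IVP than in AI, with a median of -0.04. Of all probe sets 16.2% were called higher and 11.4% lower in SCNT than in AI, and 8.42% higher and 9.49% lower in IVP than in AI, with medians of 0.08 and 0.02. Between SCNT and IVP 0 of 27 were called by limma, and 6 had an unadjusted p under 0.05, all lower in SCNT, where 4.74% of all probe sets were, beside a list median of -0.13 and an overall median of 0.06.

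Other metalloproteinases were not measurable. Of 20 names 8 were annotated (MMP1, MMP3, MMP9, MMP13, MMP15, MMP16, MMP19 and MMP20), and the brightest probe set of each stayed between 2.42 and 3.47 on all 12 arrays, so 0 were tested. The brightest TIMP4 probe set was likewise at or below 2.44. Of 3 tested regulators of metalloproteinases, 2 were lower in both in vitro groups than in AI. BSG, a membrane protein that induces metalloproteinases, differed by -0.65 in SCNT (adjusted p = 0.00412) and by -0.67 in IVP (adjusted p = 0.00539). CD63, a tetraspanin that binds TIMP1 at the cell surface, differed by -0.82 in SCNT (adjusted p = 0.00153) and by -0.63 in IVP (adjusted p = 0.00859). FURIN, a convertase that activates MMP14, was not called in either. Of 3 tested ADAM and ADAMTS genes 0 were called between conceptus groups by limma, and 1 was lower at an unadjusted p under 0.05 in SCNT against AI (16.3% of all probe sets were, and 24.1% were higher), as was 1 in SCNT against IVP.

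In the plasminogen system an inhibitor gene was lower in SCNT. SERPINE2, which encodes an inhibitor of PLAU, PLAT and thrombin, gave 5.78, 5.60 and 5.05 in SCNT, 5.84, 6.51 and 6.86 in IVP, and 7.13, 7.02 and 7.77 in AI, against 6.98, 6.89 and 7.00 in FB. All SCNT arrays lay below all AI arrays, a 3.56-fold lower level (difference -1.83, 95% interval -2.47 to -1.19, adjusted p = 0.00159). Of 6 tested genes of this list, 1 was higher and 2 lower in SCNT than in AI, and 2 were higher and 1 lower in IVP. IGF2R, a receptor that clears insulin-like growth factor and binds the urokinase receptor, was 2.16-fold higher in SCNT and 2.02-fold higher in IVP than in AI (adjusted p = 0.00205 and 0.00468). ANXA2, a surface receptor of plasminogen, was lower by -0.58 in SCNT and -0.62 in IVP than in AI. The ANXA2 calls ended without AI 1 or AI 3, in SCNT also without SCNT 2 or SCNT 3, and in IVP also without IVP 3 (adjusted p up to 0.117). Both also ended with no filter on low values, and the IVP call with the spike-in or GAPDH covariate. Over all alternatives adjusted p in limma ran up to 0.142 in SCNT and 0.322 in IVP. HGFAC, an activator of hepatocyte growth factor, passed in IVP against AI (0.98, adjusted p = 0.0479), a call that ended with the omission of any conceptus array but IVP 1. HGFAC was called there in 7 of 22 alternatives, counting the looser threshold of 0.10, with adjusted p in limma up to 0.553. PLG, the gene of plasminogen itself, on its brightest probe set stayed between 2.42 and 2.50 on all arrays.

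Among membrane and trophoblast serine proteases and their Kunitz inhibitors, 1 of 4 tested genes was higher and 1 lower in both in vitro groups. The serine protease gene PRSS23 gave 7.12, 6.97 and 6.44 in SCNT, 7.10, 6.41 and 5.75 in IVP, and 5.28, 4.95 and 5.05 in AI. It was 3.36-fold higher in SCNT (adjusted p = 0.0022) and 2.51-fold higher in IVP (adjusted p = 0.0124) than in AI. SPINT2, a Kunitz inhibitor of membrane serine proteases, differed by -0.82 in SCNT (adjusted p = 0.0111) and by -0.70 in IVP (adjusted p = 0.0324). The IVP call of SPINT2 ended without IVP 3 or any AI array (adjusted p up to 0.108). It also ended with the spike-in or GAPDH covariate, with no filter on low values and with IVP and AI fitted alone. Over all alternatives the SPINT2 difference in IVP ran from -0.85 to -0.30, with adjusted p in limma up to 0.430.

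Cathepsins, which digest proteins in lysosomes and, when secreted, in the matrix, had 4 of 9 tested genes lower in SCNT than in AI, and 2 lower and 1 higher in IVP than in AI. CTSB gave 8.51, 7.93 and 8.04 in SCNT, 7.92, 8.40 and 8.34 in IVP, and 10.07, 9.71 and 10.43 in AI. It was 3.75-fold lower in SCNT (adjusted p = 2.5e-04) and 3.60-fold lower in IVP (adjusted p = 4.52e-04), and both of its tested probe sets passed. CTSL was 2.76-fold lower in SCNT (adjusted p = 0.00127) and 2.33-fold lower in IVP (adjusted p = 0.00468). LGMN, which processes cathepsins, differed by -0.69 in SCNT (adjusted p = 0.00483). CTSD differed by -0.88 in SCNT (adjusted p = 0.0134), a call that ended without AI 1 or SCNT 3 (adjusted p up to 0.0544). It also ended with no filter on low values, and adjusted p in limma ran up to 0.120 over all alternatives. CTSH passed as higher in IVP by 0.87 (adjusted p = 0.0495), with overlapping groups and a call that held only without AI 1 or IVP 1 among the single omissions. CTSH was called there in 8 of 22 alternatives, counting the looser threshold of 0.10.

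The cystatin CST3, a secreted inhibitor of cysteine proteases, was lower than in AI by -0.90 in SCNT (adjusted p = 0.0025) and by -1.09 in IVP (adjusted p = 0.00134) on its brightest probe set. The probe sets of CST3 disagreed, since 1 of 3 passed in each comparison and the highest differences were 0.06 in SCNT and 0.10 in IVP. CST6 was not called in either.

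Against FB the wider lists split in both directions. Of 33 tested genes 10 were higher and 20 lower in SCNT, 12 higher and 19 lower in IVP, and 10 higher and 19 lower in AI, beside 45.0% higher and 34.8% lower over all probe sets in SCNT, 43.0% and 35.7% in IVP, and 41.6% and 35.6% in AI. Of the 33, ADAM12, PLAUR, HTRA1, TFPI2, CTSK and CTSS passed the filter only with the FB arrays, and FURIN, ADAMTS1, HGFAC, ST14 and PRSS8 lay below log2 4 on all FB arrays. The direction of these 6 lower and 5 higher genes followed from the filter, so the totals carry no weight beyond the other 22, of which 5 were higher and 14 lower in SCNT, 7 higher and 13 lower in IVP, and 5 higher and 13 lower in AI. Genes without a conceptus level included the collagen-cutting cathepsin gene CTSK (at least 310-fold lower in each conceptus group), the serine protease gene HTRA1 (at least 155-fold lower), CTSS (at least 36.6-fold lower) and the urokinase receptor gene PLAUR (at least 6.56-fold lower). Together with MMP2, TIMP3 and PLAT they form the part of the system that was seen in fibroblasts and, PLAT on AI 3 aside, not above log2 4 in conceptuses. LAPTM5, of the leukocyte list, also lay at 5.81 to 6.07 in FB and below log2 4 in conceptuses, and its bearing on the CTSS value was not tested. TFPI2, a Kunitz inhibitor of plasmin, was at least 59.7-fold lower in SCNT and in IVP and 52.0-fold lower in AI.

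Some other protease system genes were higher in conceptuses than in FB. For PRSS8, ADAMTS1 and FURIN, below log2 4 on all FB arrays, that direction followed from the filter. CTSL was 34.0-fold higher in SCNT, 40.2-fold higher in IVP and 93.7-fold higher in AI than in FB, where it lay at 4.88, 4.66 and 4.72. The membrane serine protease gene PRSS8 was at least 19.7-fold higher in SCNT, at least 16.8-fold in IVP and at least 17.3-fold in AI, and its partner inhibitor SPINT2 was 9.60-fold, 10.5-fold and 17.0-fold higher in the same groups. ADAMTS1, a secreted protease that cuts proteoglycans, was at least 19.3-fold higher in SCNT, at least 28.3-fold in IVP and at least 28.0-fold in AI. ADAM10, a sheddase of membrane proteins, was 4.02-fold higher in SCNT, 3.67-fold in IVP and 3.25-fold in AI. FURIN was at least 9.29-fold higher in SCNT, at least 9.22-fold in IVP and at least 7.19-fold in AI.

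**Figure D4:**
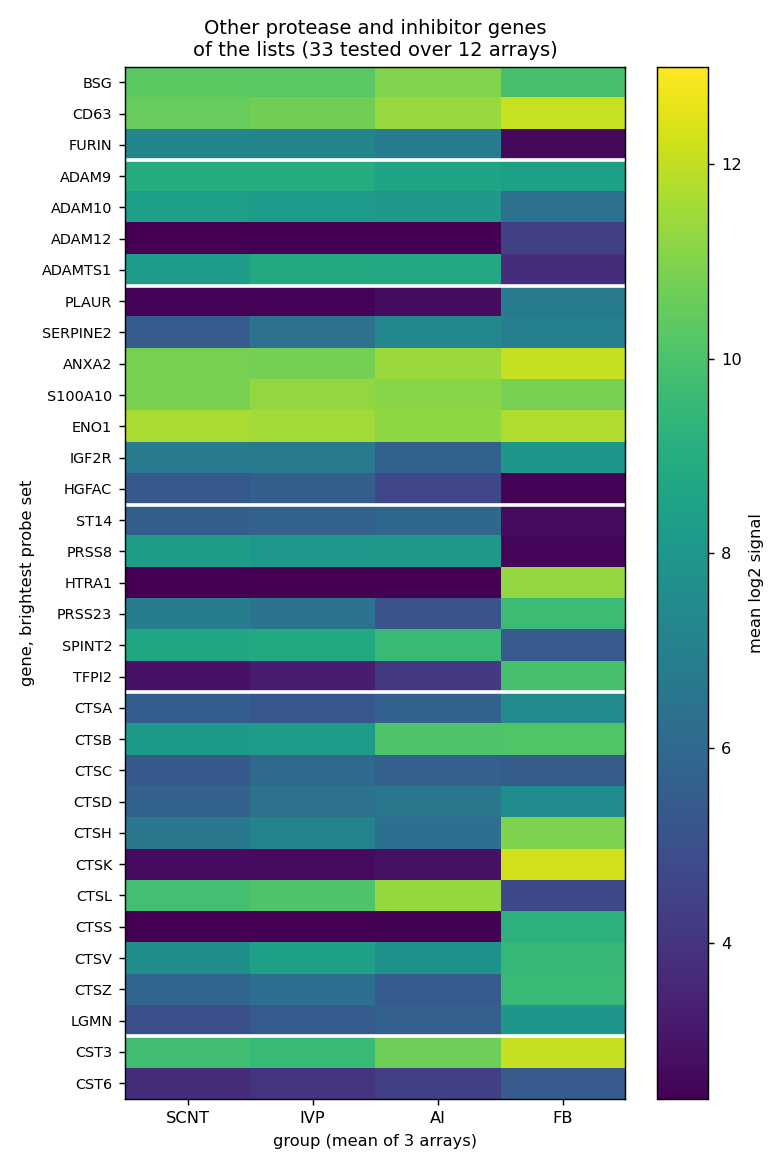
Mean log2 signal (colour, 3 arrays a group) of the brightest probe set of the 33 other protease and inhibitor genes tested over 12 arrays, in SCNT, IVP, AI and FB from left to right, with white lines between the lists. CTSK and HTRA1 are bright in FB alone, CTSL and PRSS8 in the conceptus groups alone, and CTSB is dimmer in SCNT and IVP than in AI.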

How the data were processed

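Amplified, biotin-labelled total RNA was read on a 3′ expression array, per the labels' protocols. The authors deposited log2 signals of each array. Per the submitters' processing notes, GCRMA and limma were used. Their versions, the genome build and the set of arrays normalized jointly are not stated. Values ran from 2.42 to 13.66, with 36.9% within 0.01 of the lowest. The 112 control probe sets were left out, and 0 columns were unused. Symbols came from the array annotation. No coordinates or sequences are given.

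Linear models with 1 coefficient per group were fitted in R 4.3.3 with limma 3.58.1, to the 9 conceptus arrays (6 residual degrees of freedom, 6892 probe sets with 3 or more arrays above log2 4) and, for comparisons with FB, to all 12 arrays (8 degrees of freedom, 8164 probe sets). Tests were two-sided, adjusted by Benjamini and Hochberg over all probe sets tested, and called at an adjusted p under 0.05. Before use, the code was tested on simulated data. For a group averaging below log2 4, lower arrays were raised to 4, which makes the fold a bound. In a group averaging above it, single lower arrays were kept as measured.

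Every member probe set is given. Of each list up to 4 called genes per comparison were named by smallest adjusted p, on the brightest probe set, and for each member above log2 4 on at least 3 arrays the 3 nearest profiles. Other genes were named after their values were seen. The members and lists were chosen with earlier results of these data known. Alternatives were other filters, thresholds, scalings, a floor, another variance model, other arrays in the fit, covariates, the replicate number as a block, and leaving out arrays one at a time. Their use on the list genes was added after the data were seen.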

Additional observations from a re-analysis of the deposited data

How the results depend on the processing

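The count of member probe sets called lower in SCNT than in AI was 1. It was 3 at an adjusted p under 0.10, beside 1042 of all 6892 probe sets called lower. The count was 2 with median centring (beside 852) and 2 with the floor at log2 4 (beside 752). With all 12 arrays in 1 fit it was 5 of 9 tested, beside 1058 of all 8164 probe sets. With single arrays left out it ran from 1 to 3. It was 3 without AI 3 (beside 531 of all 6747 probe sets) and 2 without SCNT 1 (656 of 6831). In IVP against AI the count was 0. It was 1 with the 2 groups alone (beside 546 of all 6617 probe sets) and 1 with all 12 arrays (919 of 8164). With single arrays left out it was 0 to 1 (1 without SCNT 1, beside 642 of 6831). In SCNT against IVP it was 0. It was 1 at an adjusted p under 0.10 (beside 51 of all 6892 probe sets) and 1 with all 12 arrays (61 of 8164). With the 2 groups alone it was 3 of 4 tested, beside 33 of all 6571 probe sets called lower. With single arrays left out it ran from 0 to 3 (3 without AI 3, beside 49 of all 6747 probe sets). Against FB the count of 9 became 5 without any 1 FB array in each comparison (5 to 9 over single omissions), because the filter then drops members above log2 4 in FB alone. Same-numbered arrays had correlations of deviations from -0.149 to 0.213. With 3 arrays a group these cannot settle whether replicate numbers paired the samples. With the replicate block 3 member probe sets were called lower in SCNT than in AI, the 2 of TIMP1 among them (adjusted p = 0.0379 and 0.0408). Of all 6892 probe sets 749 were called lower with that block. Signs turned for PLAU in SCNT against AI, whose difference was 0.023 without SCNT 3 and ran from -0.80 to 0.023 over single omissions. They also turned for PLAU in SCNT against IVP (-0.11 to 0.72 over single omissions) and for TIMP1 in IVP against AI, at -0.51 to 0.84 and -0.46 to 1.15 over single omissions. With the spike-in covariate these TIMP1 differences were -0.053 and -0.014, and with the GAPDH covariate 0.76 and 1.10. The causes were not tested. Over all probe sets, 1902 calls in SCNT against AI ranged from 918 to 2567 over the other settings and from 1167 to 1929 over single omissions, 1234 in IVP against AI from 484 to 1827 and from 671 to 1220, and 40 in SCNT against IVP from 5 to 127 and from 7 to 68. In the last, 16 higher and 24 lower became 10 higher and 25 lower with median centring. Signals near log2 4 limit TIMP1 in SCNT, and those below it give bounds only.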
